A study of Mus musculus with 67 samples.

Results

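Olfm4 was followed through bulk RNA-seq of mouse small intestinal organoids and crypts, as 1 gene of the 29579 in the deposited table of TPM, a level scaled for gene length and library size. It was selected on its level in the 8C medium, where its mean TPM was 103-fold below that in ENR medium, so every difference that involves an 8C or an ENR library is given as a description with no test. The table holds 49 organoid libraries of 10 conditions and 18 crypt libraries of 9 groups. Organoids were grown from crypts of the proximal small intestine of mice aged 6 to 12 weeks. In ENR medium, noggin was given at 100 ng/mL, R-Spondin 1 at 500 ng/mL and EGF at 50 ng/mL (n = 7). In 8C medium, the growth factors were EGF at 50 ng/mL, bFGF at 20 ng/mL and R-Spondin 1 as conditioned medium at 10%, and the small molecules were Pexmetinib at 1 µM, EPZ6438 at 2 µM, VPA at 500 µM, GSK3iXV at 0.1 µM and LDN193189 at 0.2 µM (n = 7). Both media therefore supplied EGF, R-Spondin 1 and an inhibitor of BMP signalling, noggin in ENR and LDN193189 in 8C. The other conditions were 8C medium lacking VPA and EPZ6438, called the drugs below (8C -VE, n = 7), lacking EPZ6438 alone and so with VPA (8C -E, n = 7), lacking VPA alone and so with EPZ6438 (8C -V, n = 6), lacking GSK3iXV (8C -GSK3i), Pexmetinib (8C -Pex), bFGF (8C -bFGF) or EGF (8C -EGF), and ENR medium with VPA and EPZ6438 (ENR +VE), with n = 3 in each of the last 5. Crypts came from 8-week-old female C57BL/6 mice, either normal or 1, 2, 3 and 5 days after a single dose of 12 Gy (IR), without drugs or with daily gavage of 40 mg/kg VPA and 0.6 mg/kg EPZ6438 (IR +VE), with 2 libraries in each of the 9 groups.

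Olfm4 encodes olfactomedin 4, a secreted glycoprotein of the olfactomedin family. In the small intestine it is a marker of the crypt base columnar stem cells, the cells that also carry Lgr5, a receptor for R-spondins. Notch signalling between crypt cells keeps stem cells from taking the secretory fate: the ligands Dll1 and Dll4 on neighbouring Paneth and secretory cells activate Notch1 and Notch2, the target Hes1 represses the secretory factor Atoh1, and Olfm4 is among the genes that Notch signalling induces. Olfm4 is also known as a target of NF-κB. VPA inhibits histone deacetylases, and EPZ6438 (tazemetostat) inhibits EZH2, the enzyme that methylates lysine 27 of histone H3. Pexmetinib is an inhibitor of p38 and Tie2, and GSK3iXV inhibits the kinase GSK3, which restrains Wnt signalling.

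Olfm4 (ENSMUSG00000022026) lies on the plus strand of chromosome 14 of GRCm38/mm10, chr14:79984081-80023139 in the GENCODE annotation. Its 7-exon coding transcript starts at position 80000302, which is also the RefSeq start, and its start codon begins at 80000325. A further coding transcript starts upstream, at 80000251, and shares the start codon. The stretch before that start and a short one inside its first exon are shown because Olfm4 is set beside Notch pathway genes below, and the capitals mark 2 short motifs that a search of both strands found in them, TTTATG, the core bound by the intestinal factors CDX1 and CDX2, and TGGGAA, the core bound by RBPJ, the DNA-binding partner of Notch. Both sequences are RefSeq sequence of GRCm38.p6, 5′ to 3′ on the plus strand.
Olfm4 chr14:80000052-80000250: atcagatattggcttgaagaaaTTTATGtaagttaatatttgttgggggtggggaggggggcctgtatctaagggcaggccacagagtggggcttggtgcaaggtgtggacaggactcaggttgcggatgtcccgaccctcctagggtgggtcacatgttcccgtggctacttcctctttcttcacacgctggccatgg
Olfm4 chr14:80000282-80000303: tgagactcTGGGAAgaagccag
TTTATG begins 228 bases before the RefSeq start and TGGGAA begins 12 bases before it, within the first exon of the longer transcript. These letters are common: 11.9% of the 32851 mouse promoter windows searched in the same way hold TTTATG and 25.6% hold TGGGAA. The TCF core searched as ATCAAAG or TTCAAAG (8.65% of windows), the GATA core AGATAA (11.2%) and the TATA box TATAAA (13.6%) were not among the letters of the Olfm4 window. A match is a description of the letters and no measure of binding. The long model Gm6999 runs over the same strand and shares 153 of the 2962 exon bases of Olfm4. Gm6999 was listed at 0 in 63 of the 67 libraries and reached at most 0.189 TPM.

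The epithelial label was checked against markers. All 7 epithelial markers, among them Epcam and Vil1, reached a mean of 1 TPM in organoids and in crypts, none of the 7 markers of muscle and stroma did in either, and of 9 immune markers 1 did in organoids and 5 did in crypts. Organoid and crypt levels were not set against each other, because the TPM of the listed genes summed to between 983801 and 988144 in organoid libraries and to between 819346 and 910935 in crypt libraries, with mitochondrial genes taking 1.52% to 6.64% and 10.6% to 48.4%. Read numbers cannot be had from TPM, so depth is unknown and no counting interval can be given. The labels do not tie single libraries to mice. For RNA-seq panels of the medium components and of the crypts the study gives its n as mice, but which libraries of the larger groups share a mouse is not stated in the sources used here, so p-values measure the spread between these libraries.

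Olfm4 was among the most abundant transcripts of organoids in 6 of the 10 conditions and far lower in the other 4. In ENR it ranged from 1591 to 2856 TPM with a median of 2599 (mean 2500.5 ± 434, SD, n = 7), and it stood 25th to 74th of all 29579 genes of its library. In 8C -VE it ranged from 682 to 1713 TPM with a median of 1451 (1378 ± 363, SD, n = 7). In ENR +VE the libraries held 1260, 924 and 1100 TPM (1095 ± 168, SD, n = 3). These 3 conditions made the top of the order, and the ranges of ENR and 8C -VE overlapped while those of ENR and ENR +VE did not. In 8C -E, with VPA the drug given, Olfm4 ranged from 241 to 1559 TPM with a median of 837 (824 ± 470, SD, n = 7). In 8C -EGF it was 302, 1006 and 326 TPM (545 ± 400, SD, n = 3), so that 1 library lay about 3-fold above the others. In 8C -V, with EPZ6438 the drug given, it ranged from 228 to 624 TPM with a median of 496 (455 ± 167, SD, n = 6). No library of these 6 conditions was below 228 TPM.

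In 8C itself Olfm4 ranged from 6.57 to 41.1 TPM with a median of 22.5 (24.2 ± 13.2, SD, n = 7), 0.967% of its mean in ENR, and its rank within the library was 4586th to 9601st. Leaving out Pexmetinib, GSK3iXV or bFGF gave levels in the same range. The 8C -Pex libraries held 7.81, 19.7 and 43.4 TPM (23.6 ± 18.1, SD, n = 3), the 8C -GSK3i libraries 5.46, 23.4 and 33.6 TPM (20.8 ± 14.3, SD, n = 3) and the 8C -bFGF libraries 3.19, 12.7 and 20.2 TPM (12.04 ± 8.54, SD, n = 3). The 16 libraries of these 4 conditions lay between 3.19 and 43.4 TPM, and the 33 libraries of the other 6 between 228 and 2856 TPM, so no library fell between the sets. All 4 low conditions held VPA, EPZ6438 and EGF in 8C base. In bulk libraries, fewer Olfm4-expressing cells and less Olfm4 RNA per cell cannot be told apart.

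**Figure D1:**
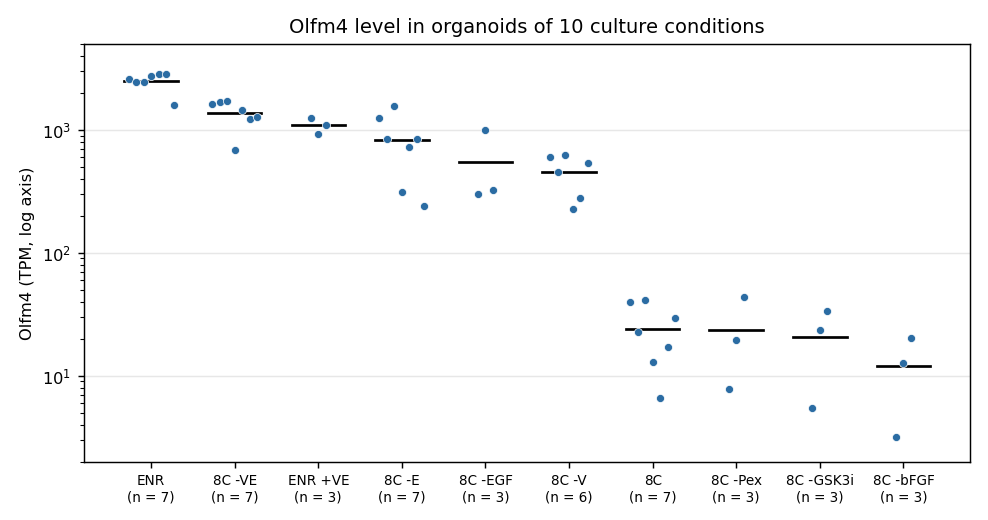
Olfm4 level in TPM on a log axis for each of the 49 organoid libraries, in 10 conditions ordered by level. Points are libraries and bars are mean TPM, and the 4 conditions at the low end lie between 3.19 and 43.4 TPM while no library of the other 6 is under 228 TPM.

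The order of mean log2(TPM + 1) ran from ENR (11.27) through 8C -VE (10.37), ENR +VE (10.09), 8C -E (9.44), 8C -EGF (8.86), 8C -V (8.74), 8C (4.45), 8C -Pex (4.33) and 8C -GSK3i (4.14) to 8C -bFGF (3.42). Neighbours in this order were mostly not separated. With limma, the adjusted p was 0.499 for 8C -VE against ENR +VE, 0.567 for ENR +VE against 8C -E, 0.571 for 8C -E against 8C -EGF, 0.9 for 8C -EGF against 8C -V, 0.956 for 8C -Pex against 8C -GSK3i and 0.843 for 8C -GSK3i against 8C -bFGF. The 1 step at which neighbouring ranges did not overlap was that from 8C -V to 8C, a difference of 4.29 on the log2 scale. The coefficient of variation was 17.4% in ENR, 26.3% in 8C -VE, 15.4% in ENR +VE, 57.1% in 8C -E, 73.4% in 8C -EGF, 36.7% in 8C -V, 54.6% in 8C, 76.7% in 8C -Pex, 68.4% in 8C -GSK3i and 70.9% in 8C -bFGF, so the 3 conditions with the highest levels had the 3 narrowest spreads.

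The effect of each drug alone was asked by comparing 8C -V and 8C -E with 8C -VE. EPZ6438 as the only drug went with lower Olfm4: all 6 libraries of 8C -V lay below all 7 of 8C -VE, and the difference was -1.64 ± 0.27 (SE) on the log2(TPM + 1) scale, 3.11-fold (95% interval -2.21 to -1.07, limma, adjusted p = 0.00115). Few genes moved this way, since 0.261% of the 12263 genes tested were called lower (2-fold or more with an adjusted p under 0.05), and Olfm4 had the 14th lowest log2 change among them. A two-sided exact permutation test of Olfm4 alone gave p = 0.00117, or 0.0326 after adjustment over the 28 pairs of conditions tested. It exchanged libraries without regard to replicate number, as did all such tests of organoids here. VPA as the only drug gave -0.94 ± 0.37 (SE) with overlapping ranges (95% interval -1.72 to -0.16), and this was not called, where 1.07% of genes were called lower (limma, adjusted p = 0.135, exact permutation p = 0.0402, adjusted over the 28 pairs 0.0866). With the replicate number as a block, which the libraries' shared deviations allow for these media, the difference for VPA was again -0.94 with an adjusted p of 0.0202 from limma, short of 2-fold. Libraries with EPZ6438 alone and with VPA alone differed by -0.70 (95% interval -1.57 to 0.17, limma, adjusted p = 0.341, where 3.02% of all genes were called), and the difference was -0.95 with the block (limma, adjusted p = 0.000434), also short of 2-fold.

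Both drugs together left far less Olfm4 than either alone, which is given as a description. The difference between 8C and 8C -VE was -5.93 on the log2 scale, 60.9-fold, while the single differences of -0.94 and -1.64 add to -2.58. The sum of the single differences would have put Olfm4 at 221 TPM, and the mean in 8C was 24.2 TPM. Observed minus summed was -3.35 on the log2 scale, 10.2-fold. Libraries that share a number allow the same sum to be taken 6 times: the summed level was 460, 227, 568, 105, 141 and 372 TPM for numbers 1 to 6, and the level in the 8C library of that number was 39.7, 22.5, 41.1, 12.9, 6.57 and 17.1 TPM. The 8C library was the lower in 6 of 6, with observed minus summed between -4.37 and -2.93 on the log2 scale. Numbers 1 to 3 and 4 to 6 differed in level, with means of 2500.1 and 2804 TPM in ENR, 34.4 and 12.2 TPM in 8C, 1672 and 1117 TPM in 8C -VE, 1215 and 626 TPM in 8C -E and 560 and 350 TPM in 8C -V, so 8C was lowest within each set. The difference between 8C and ENR was accordingly -6.19 on the log2 scale with numbers 1 to 3 only and -7.82 with numbers 4 to 6 only, and -6.82 over all libraries.

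**Figure D2:**
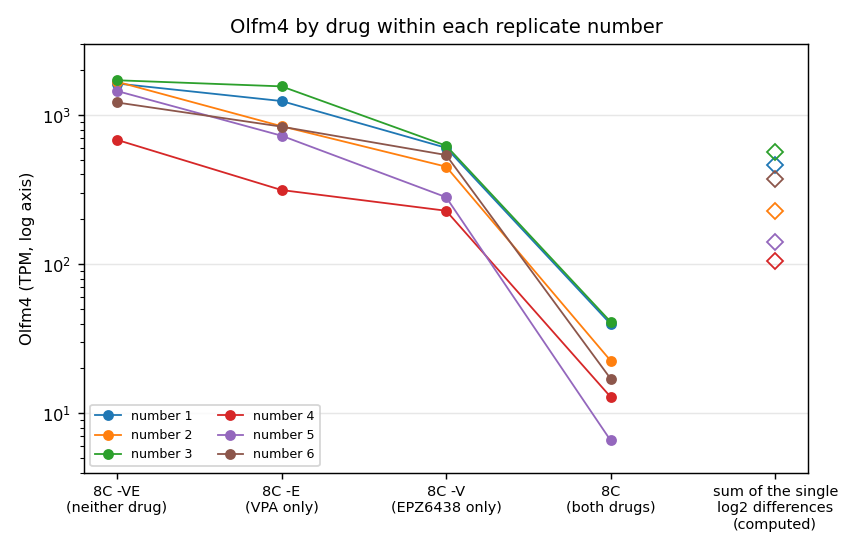
Olfm4 level in TPM on a log axis by replicate number 1 to 6 in 8C base with neither drug (8C -VE), VPA alone (8C -E), EPZ6438 alone (8C -V) and both drugs (8C), each line joining libraries of 1 number. Open diamonds are the level computed from the sum of the single-drug log2 differences, 105 to 568 TPM, and all 6 libraries of 8C lie under their diamond.

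The same pair of drugs was far less marked in ENR base. ENR +VE against ENR gave -1.18 on the log2 scale, 2.27-fold, with no overlap of libraries. The difference that went with the drugs in 8C base minus that in ENR base was thus -4.75 on the log2 scale, 26.9-fold, as a description. Without drugs, 8C -VE against ENR gave -0.89 with overlapping ranges. Drug doses in ENR +VE are not given in the sources used here, so the bases were not compared at doses known to match.

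Removing single components of 8C was compared with 8C -VE and ENR +VE, libraries that the choice of the gene did not use. Each such medium is 8C less a single component, and the gene was chosen for its fall in 8C. Low ranks and small p-values here and below are thus no independent support for that fall. Against 8C -VE, Olfm4 fell in all 3 of 8C -GSK3i, 8C -Pex and 8C -bFGF. The change was -6.23 ± 0.44 (SE) on the log2 scale in 8C -GSK3i (limma, adjusted p = 1.43e-06), -6.05 ± 0.41 in 8C -Pex (limma, adjusted p = 1.31e-06) and -6.96 ± 0.43 in 8C -bFGF (limma, adjusted p = 3.23e-07). In each of these comparisons it had the lowest log2 change of all genes tested, where 1.14%, 1.74% and 1.79% of genes were called lower. All 3 exact permutation tests gave p = 0.00833, the smallest that 3 against 7 libraries allow, and 0.0333 after adjustment over the 28 pairs. Against ENR +VE, which also held VPA, EPZ6438 and EGF, it changed by -5.95 ± 0.61 in 8C -GSK3i, by -5.76 ± 0.49 in 8C -Pex and by -6.67 ± 0.58 in 8C -bFGF (limma, adjusted p = 0.00108, 0.000265 and 0.000512), where 3.72%, 5.28% and 4.76% of genes were called lower. Again it had the lowest log2 change of all genes, and the exact permutation p was 0.1, the smallest that 3 against 3 libraries allow. Other markers also separated these libraries: the summed enterocyte markers were 11645 to 13136 TPM in ENR +VE and 2030 to 7042 TPM over the 3 omissions, and the summed targets of BMP signalling were 353 to 407 TPM and 70.2 to 146 TPM. Against 8C -VE, summed enterocyte markers were 5046 to 6977 TPM in 8C -GSK3i and 1661 to 4197 TPM in 8C -VE. Summed enteroendocrine markers were 2066 to 2676 TPM in 8C -Pex and 390 to 1156 TPM in 8C -VE. For each sum, the remaining omissions of this paragraph overlapped with 8C -VE. The part of these markers in the differences from ENR +VE and 8C -VE was not tested. These comparisons share their control libraries and are not independent of each other.

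Among the omissions of Pexmetinib, GSK3iXV and bFGF no difference in Olfm4 was called, and few genes were (0.851% for 8C -GSK3i against 8C -Pex, 0.165% for 8C -GSK3i against 8C -bFGF and 0.446% for 8C -Pex against 8C -bFGF). The 95% interval of the log2 difference was -2.23 to 1.85 for 8C -GSK3i against 8C -Pex, -1.34 to 2.78 for 8C -GSK3i against 8C -bFGF and -1.12 to 2.93 for 8C -Pex against 8C -bFGF. Replicate 1 was the lowest and replicate 3 the highest in each of these conditions, and same-numbered libraries deviated together over genes (correlations of 0.268 to 0.611). Number by number, 8C -GSK3i was above 8C -bFGF by 0.63, 0.83 and 0.71 on the log2 scale and 8C -Pex was above it by 1.07, 0.59 and 1.06, so 8C -bFGF was the lower in 3 of 3 both times. With the number as a block, a fit added after seeing the data, 8C -GSK3i against 8C -bFGF gave 0.72 ± 0.087 (SE, limma, adjusted p = 0.00341), 8C -Pex against 8C -bFGF 0.91 ± 0.17 (limma, adjusted p = 0.0622) and 8C -GSK3i against 8C -Pex -0.19 ± 0.17 (limma, adjusted p = 0.612), all short of 2-fold. Over all genes the block raised the calls in these comparisons from 21, 57 and 108 to 107, 92 and 196. The means of 8C -GSK3i, 8C -Pex and 8C -bFGF were 0.862, 0.977 and 0.498 times that of all 8C libraries, with overlapping ranges in every case. The mean of 8C was 34.4 TPM in numbers 1 to 3 and 12.2 TPM in numbers 4 to 6. These ratios therefore turn on which 8C libraries are taken.

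Apart from leaving out VPA or EPZ6438, leaving out EGF was the 1 omission after which every library lay above all 7 libraries of 8C, at 22.5-fold the mean TPM over all 8C libraries. Against the other omissions this was tested. Olfm4 was 26.3-fold lower in 8C -GSK3i than in 8C -EGF (-4.72 ± 0.81 (SE) on the log2 scale, limma, adjusted p = 0.0144), 23.1-fold lower in 8C -Pex (-4.53 ± 0.65, limma, adjusted p = 0.00801) and 43.4-fold lower in 8C -bFGF (-5.44 ± 0.76, limma, adjusted p = 0.027), with no overlap of libraries and an exact permutation p of 0.1 in each, the smallest that 3 against 3 allow. It had the lowest log2 change of all genes against 8C -bFGF and the 2nd lowest in the other comparisons, where 1.62% (8C -GSK3i), 1.11% (8C -Pex) and 0.628% (8C -bFGF) of genes were called lower. Olfm4 in 8C -EGF was still below 8C -VE, by -1.52 ± 0.37 (SE) with overlapping ranges (limma, adjusted p = 0.0118, exact permutation p = 0.0167), where 2.32% of genes were called lower. That call rested on single libraries and on the control set. Without 8C -EGF replicate 1 or 3 it was lost, and over the replicates left out in turn the difference ran from -2.08 to -1.21 with limma's adjusted p from 0.000733 to 0.0847. Against 8C -VE numbers 4 to 6 only, the difference was -1.20 and not called (limma, adjusted p = 0.0822). Against ENR +VE, 8C -EGF gave -1.23 (95% interval -2.18 to -0.28, limma, adjusted p = 0.0522), which was not called (5.21% of genes were called lower), and without 8C -EGF replicate 2, the high library, it was -1.79 and was called (limma, adjusted p = 7.9e-05). The summed enterocyte markers separated these conditions too, at 908 to 933 TPM in 8C -EGF against the 11645 to 13136 TPM of ENR +VE. Other cell type markers moved with the omission of EGF: the summed enterocyte markers were 908 to 933 TPM in 8C -EGF against 1661 to 4197 TPM in 8C -VE and 2030 to 7042 TPM over the other omissions, the summed goblet markers were 1572 to 1612 TPM against 2101 to 4493 TPM and 2105 to 4562 TPM, and the summed cycling markers were 2797 to 2932 TPM against 1977 to 2626 TPM and 1698 to 2488 TPM. Their part in the Olfm4 values was not tested.

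Loss of Olfm4 was next set beside other markers of crypt base stem cells, 19 genes that include the R-spondin receptor Lgr5, the stem cell transcription factor Ascl2 and Smoc2, a secreted calcium-binding protein. None of the 19 was called in 8C -V against 8C -VE, where 3.22% of all genes were called, and their median log2 change was 0.01. In 8C -bFGF against 8C -VE, where Olfm4 was at -6.96, 3 of the 19 were called higher (Rnf43, Sox9 and Tnfrsf19) and none lower, with 8.81% of all genes called higher and 1.79% lower, and the median was 0.21. In 8C -GSK3i 1 was called higher (Tnfrsf19, where 7.86% of all genes were) and none lower. In 8C -Pex 1 was called higher (Tnfrsf19, where 8.32% of all genes were) and 1 lower, Aqp4, a water channel. The median was -0.02 and 0.12 in these. Lgr5 itself differed from 8C -VE by -0.28 in 8C -GSK3i (limma, adjusted p = 0.25), by -0.43 in 8C -Pex (limma, adjusted p = 0.18) and by -0.08 in 8C -bFGF (limma, adjusted p = 0.80), and none was called. The level of Lgr5 was 40.5 ± 9.06 TPM in ENR, 56.6 ± 9.64 TPM in 8C -VE and 65.0 ± 27.5 TPM in 8C (SD, n = 7 each), 54.0 ± 11.9 TPM in 8C -bFGF and 80.4 ± 10.4 TPM in 8C -EGF (SD, n = 3 each). Ascl2 differed from 8C -VE by -0.022 in 8C -GSK3i, by 0.23 in 8C -Pex and by 0.050 in 8C -bFGF, and Smoc2 by 0.21, 0.12 and 0.21, without a call. The sign of values this near 0 turned with the scaling, Lgr5 in 8C -bFGF and Ascl2 in 8C -GSK3i being above 0 with scaling to the 75th percentile.

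The medium without EGF stood apart from the other omissions for a few stem cell markers too. Against 8C -EGF, 3 of the 19 were called lower in 8C -GSK3i (Axin2, Rgmb and Tnfrsf19), 3 in 8C -Pex (Aqp4, Rgmb and Tnfrsf19) and 1 in 8C -bFGF (Rgmb), where 1.62%, 1.11% and 0.628% of all genes were called lower, and none was called higher. The medians were -0.50, -0.37 and -0.30. Rgmb, a co-receptor of BMP signalling, held 88.6 ± 21.0 TPM in 8C -EGF and between 36.7 and 37.8 TPM as means of 8C -GSK3i, 8C -Pex and 8C -bFGF. Tnfrsf19, a Wnt-induced receptor of the TNF receptor family, held 53.4 ± 10.6 TPM in 8C -EGF, 30.6 ± 9.90 TPM in 8C -E, 30.1 ± 11.2 TPM in 8C and 6.54 ± 1.66 TPM in 8C -VE, and it was the 1 stem cell marker called higher in 8C -E against 8C -VE, where 3.11% of all genes were (2.04 on the log2 scale).

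The Notch pathway list has 33 genes, of which 29 or 30 were tested in these comparisons. With EPZ6438 alone 1 was called, the atypical ligand Dll3, which rose (1.06 on the log2 scale, where 2.96% of all genes were called higher), and with VPA alone 1 was called, Notch3, which rose (3.11% of all genes higher). With either drug the share of the list called was near that of all genes. In 8C -GSK3i against 8C -VE, where 7.86% of all genes were called higher and 1.14% lower, the receptor Notch3 and the coactivator Maml2 rose while the ligand Dll4 (-1.22), the secretory factor Atoh1 (-1.06) and the feedback regulator Nrarp fell. In 8C -bFGF Notch3 (1.90) and Maml2 rose while Atoh1 (-1.21), Nrarp (-1.35) and the secretory factor Spdef fell, with 8.81% of all genes called higher and 1.79% lower. In 8C -Pex, Dll3, Maml2 and the glycosyltransferase Mfng rose and none fell, where 8.32% and 1.74% of all genes were called. In each of these omissions the share of higher calls was near that of all genes. Hes1, the Notch target that represses Atoh1, was not called in any of them, at -0.25 in 8C -GSK3i (limma, adjusted p = 0.42), -0.56 in 8C -Pex (limma, adjusted p = 0.068) and -0.46 in 8C -bFGF (limma, adjusted p = 0.15). The ligand Dll1 lay at -0.90 in 8C -GSK3i, -0.98 in 8C -Pex and -0.90 in 8C -bFGF, short of 2-fold. Notch1 differed by -0.38 in 8C -GSK3i, by -0.46 in 8C -Pex and by -0.085 in 8C -bFGF, with no call, and Dll4 by -0.72 in 8C -Pex and by -0.89 in 8C -bFGF, also with no call. The change in Olfm4, a gene chosen for its fall in 8C, was -6.96 to -6.05 on the log2 scale. It was larger in size than that of any Notch pathway gene tested in these comparisons. The calls of Dll3 with EPZ6438, of Notch3 with VPA, of Maml2 in every omission and of Mfng in 8C -Pex were lost with quantile normalization, that of Notch3 with VPA also with mitochondrial genes removed (1.39, limma, adjusted p = 0.051), and that of Atoh1 in 8C -GSK3i with scaling to the 75th percentile, with no change of direction.

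Olfm4 was also set beside targets of NF-κB and of Wnt signalling. Of 15 NF-κB targets, 12 or 13 were tested against 8C -VE in the 4 omissions. The adhesion receptor Icam1 was called higher in each, where 7.86% (8C -GSK3i), 8.32% (8C -Pex), 8.81% (8C -bFGF) and 8.66% (8C -EGF) of all genes were, and Lcn2, which encodes lipocalin 2, also in 8C -Pex. For Icam1 alone, the share of the list was near that of all genes. No target of either list was called lower in the omissions, where 1.14% to 2.32% of all genes were, a share near which a list of this size would hold none. Of the 10 Wnt targets tested, 3 were called higher in 8C -GSK3i (Myc, Nkd1 and Tnfrsf19), 4 in 8C -Pex (those and Sp5) and 5 in 8C -bFGF (those and Rnf43), where 7.86%, 8.32% and 8.81% of all genes were. Tnfrsf19 and Rnf43 are in the stem cell list as well. In 8C -EGF 4 of 11 were called higher (Nkd1, Notum, Sp5 and Tnfrsf19), where 8.66% of all genes were. The median of the Wnt targets was 0.46, 0.59 and 0.77 on the log2 scale in 8C -GSK3i, 8C -Pex and 8C -bFGF and 0.92 in 8C -EGF, so higher Wnt targets were found in the omission with high Olfm4 as well.

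In 8C -EGF against 8C -VE, where Olfm4 was at -1.52, Atoh1 fell by 1.49 and Spdef also fell, and Maml2, Mfng and Notch3 rose, with 8.66% of all genes called higher and 2.32% lower. Atoh1 and Spdef were called higher in 8C -Pex than in 8C -EGF, where 2.25% of all genes were, and no Notch gene was called between 8C -bFGF and 8C -EGF, where 1.84% of all genes were. Lfng and Mfng were called lower in 8C -GSK3i than in 8C -EGF, where 1.62% of all genes were. Spdef held 9.01 ± 1.09 TPM in 8C -EGF and 8.50 ± 1.25 TPM in 8C -bFGF (SD, n = 3), the conditions with the highest and the lowest Olfm4 of the 4 omissions, and was not called between them. A link between Spdef and Olfm4 was not tested.

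**Figure D3:**
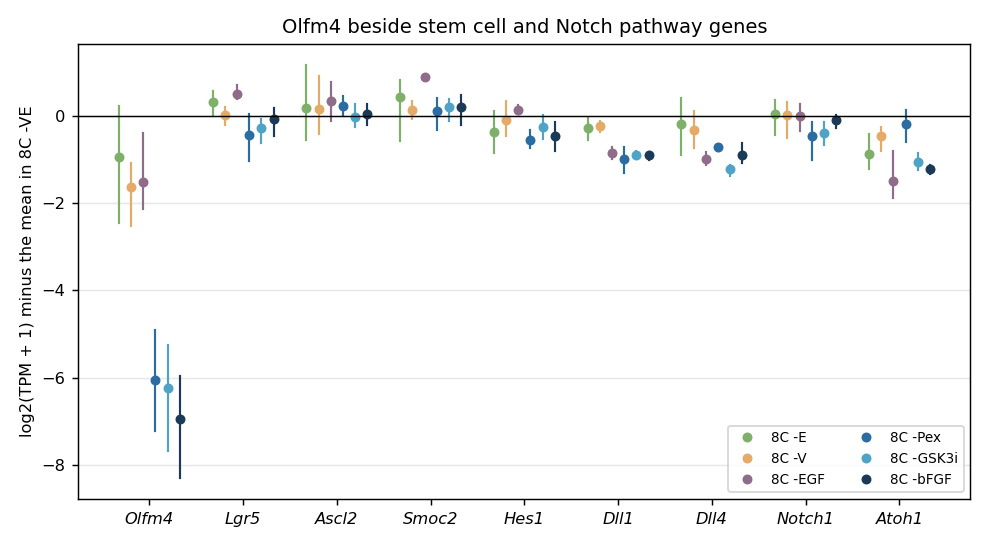
Difference in log2(TPM + 1) from the mean of 8C -VE for Olfm4, 3 stem cell markers and 5 Notch pathway genes in 6 conditions of 8C base, with dots for the mean and lines from the lowest to the highest library. Olfm4 lies at -6.05 to -6.96 in 8C -GSK3i, 8C -Pex and 8C -bFGF, and Lgr5 at -0.43 to -0.08 there.

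Markers of Paneth cells, the secretory cells that sit between the stem cells of the crypt base and supply them with Notch ligands, moved in the direction of Olfm4 in part of the comparisons. The 5 Paneth genes tested include Lyz1, which encodes lysozyme. Against 8C -VE, 3 of the 5 were called lower in 8C -GSK3i, 3 in 8C -Pex and 4 in 8C -bFGF, where 1.14%, 1.74% and 1.79% of all genes were, with medians of -1.40, -1.13 and -1.55. With VPA alone, where Olfm4 was at -0.94 and not called, 3 were lower (Defa24, Itln1 and Lyz1, with 1.07% of all genes lower, median -1.07). With EPZ6438 alone, where Olfm4 fell, none was called (median -0.41), though Lyz1 was at -0.75 (limma, adjusted p = 0.0181), short of 2-fold. Lyz1 changed by -2.94 in 8C -GSK3i, by -2.60 in 8C -Pex, by -2.68 in 8C -bFGF and by -1.33 in 8C -E. The summed level of the Paneth list ran from 10920 to 13216 TPM in ENR, from 9240 to 14651 in 8C -VE, from 6784 to 9454 in 8C -V, from 3693 to 8331 in 8C -E, from 5534 to 6371 in 8C -EGF, from 4434 to 4753 in ENR +VE, from 3144 to 4776 in 8C -Pex, from 2736 to 3349 in 8C -GSK3i, from 2527 to 3015 in 8C -bFGF and from 1168 to 4463 in 8C. The sums were thus highest in ENR and 8C -VE, where Olfm4 was highest, and reached at most 4776 TPM in the 4 conditions with low Olfm4, and neither 8C against 8C -VE nor ENR +VE against ENR had overlapping sums. ENR +VE and 8C -Pex overlapped in their Paneth sum while their Olfm4 levels differed by -5.76 on the log2 scale. The part of Paneth cell number in the Olfm4 values was not tested. Genes of the Defa family are near-identical copies, so their single values depend on how shared reads were assigned.

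Relatives of Olfm4 did not share its direction. Of 9 other genes with an olfactomedin domain, 3 were abundant enough to be tested in 8C -bFGF and in 8C -EGF against 8C -VE, Olfm1, Olfm2 and Olfml1, and all 3 were called higher in both comparisons, where 8.81% and 8.66% of all genes were. In 8C -bFGF the log2 changes were 2.42 for Olfm1, 1.40 for Olfm2 and 1.82 for Olfml1. Both members tested, Olfm1 and Olfm2, were called higher in 8C -GSK3i and in 8C -Pex, where 7.86% and 8.32% of all genes were. Olfm1 also rose with EPZ6438 alone, by 1.02, where Olfm4 fell by 1.64. The calls of Olfm2 in 8C -GSK3i, 8C -Pex and 8C -bFGF and of Olfm1 with EPZ6438 were lost with quantile normalization, with the same direction. Olfm1 held 2.43 ± 1.03 TPM in 8C -VE and 13.2 ± 2.42 TPM in 8C (SD, n = 7 each), and 22.3 ± 2.64 TPM in 8C -EGF (SD, n = 3).

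Genes whose pattern over the 10 organoid conditions was most like that of Olfm4 were sought among 1292 genes whose mean reached 1 TPM and whose condition means spanned 2 or more on the log2 scale. Pearson's r over the 10 condition means, given as a description of points that share media, was 0.964 for Smbd1, 0.958 for Clca3b, a member of the calcium-activated chloride channel regulator family, 0.928 for the protocadherin Pcdh8, 0.913 for the α-defensin Defa17 and 0.908 for Prelp, a leucine-rich proteoglycan of the extracellular matrix. The next were 2310040G24Rik (0.907), Gm48265 (0.899), Defa26 (0.899), Defa3 (0.895) and the carboxylesterase Ces1b (0.894). The membership depended on the measure: 5 of these 10 were also among the 10 most like by Pearson's r over the 49 libraries, 4 by Spearman's rho over the 10 means and 8 with a pseudocount of 0.1. Of all candidates, 6 had an r over 0.9 and 28 had an r under -0.9. The 5 most opposed were Ggta1 (-0.970), Gcnt1 (-0.967), Sptssb (-0.955), St6galnac4 (-0.954) and Pcx (-0.952). Ggta1, Gcnt1 and St6galnac4 encode glycosyltransferases, Sptssb a subunit of serine palmitoyltransferase and Pcx pyruvate carboxylase. The like and opposed genes spanned 2.12 to 4.63 on the log2 scale and Olfm4 spanned 7.85, so none matched its depth. Ces1b was 11.9 ± 3.28 TPM in 8C -VE (SD, n = 7) and 0.261 ± 0.144 TPM in 8C -bFGF (SD, n = 3), and Ggta1 was 0.814 ± 0.248 and 13.6 ± 8.61 TPM there. In the crypts, the r over the 9 group means was 0.762 for Smbd1, whose means spanned 1.54 on the log2 scale there, and -0.164 for Defa17, whose means spanned 2.25. It was 0.647 for Clca3b, 0.897 for Prelp, 0.919 for 2310040G24Rik and 0.668 for Gm48265, and 0.0316 for Defa26 and -0.0834 for Defa3. Pcdh8 and Ces1b spanned 0.275 and 0.255 there and were close to absent, so no summary over the like genes is given for crypts.

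**Figure D4:**
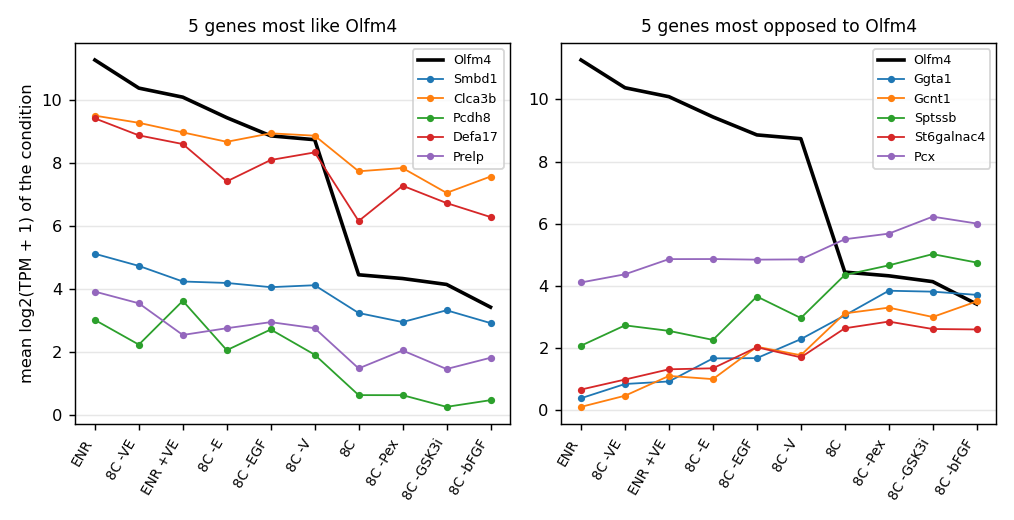
Mean log2(TPM + 1) in the 10 organoid conditions for Olfm4, the 5 genes most like it and the 5 most opposed, as Pearson's r over the 10 means. Olfm4 spans 7.85 on the log2 scale and the like and opposed genes named in the text span 2.12 to 4.63.

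In crypts Olfm4 fell on days 1, 2 and 3 after irradiation, and on day 5 its difference from normal crypts was not called. Normal crypts held 201 and 364 TPM. On day 1 the libraries held 31.1 and 31.5 TPM, a log2 change of -3.07 ± 0.43 (SE), 8.41-fold (limma, adjusted p = 0.000738), where 5.48% of the 10802 genes tested were called lower. On day 2 they held 5.74 and 8.58 TPM, a change of -5.08, 33.8-fold (limma, adjusted p = 2.59e-06), the 14th lowest of all genes, where 26.2% were called lower. On day 3 they held 8.00 and 5.79 TPM, a change of -5.12, 34.8-fold (limma, adjusted p = 8.33e-07), where 51.3% were called lower. The size on day 3 turned on the scaling, at -3.98 with quantile normalization and -3.94 with scaling to the 75th percentile, and on day 2 it was -4.48 and -4.50, with the call kept each time. On day 5 they held 147 and 103 TPM, below both normal libraries, but the change of -1.13 (95% interval -2.06 to -0.20) was not called (limma, adjusted p = 0.0665, where 5.61% of genes were called lower). That missed call turned on the processing: it was made with scaling to the 75th percentile (-1.48, limma, adjusted p = 0.0231), with mitochondrial genes removed (-1.19, limma, adjusted p = 0.048) and with the fit held to the groups compared (-1.13, limma, adjusted p = 0.0445), and over the replicates left out in turn the change ran from -1.56 to -0.70. It was also made, at -1.13, when either library of IR day 3 +VE was left out of the shared fit (limma, adjusted p = 0.0122 and 0.0124).

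Whole libraries shifted on the same days. The median log2 change of all genes was -0.36 on day 1, -0.61 on day 2, -1.03 on day 3 and 0.27 on day 5. With quantile normalization 13.6% of genes were called lower and 11.1% higher on day 3, against 51.3% and 2.56% as deposited, and 7.69% and 9.66% on day 2, against 26.2% and 4.55%. The mitochondrial share of TPM was 12.7% to 18.1% in normal crypts, 29.7% to 31.8%, 32.6% to 39.9% and 37.9% to 48.4% on days 1, 2 and 3, and 11.8% to 12.3% on day 5. Olfm4 taken without mitochondrial genes was 246 and 417 TPM in normal crypts, 9.55 and 12.7 TPM on day 2, 15.5 and 9.31 TPM on day 3 and 167 and 117 TPM on day 5, so its fall on days 2 and 3 was present on that scale too. Markers of other cell types moved on the same days. Summed enterocyte markers were 6604 to 11823 TPM in normal crypts, 16597 to 17539 TPM on day 1, 21534 to 26917 TPM on day 2, 1822 to 5073 TPM on day 3 and 10321 to 11702 TPM on day 5. Summed Paneth markers were 11270 to 28224 TPM in normal crypts, 27263 to 27806 TPM on day 1, 5847 to 8500.0 TPM on day 2, 12121 to 22463 TPM on day 3 and 6888 to 7654 TPM on day 5, so they lay below the normal range on days 2 and 5 and within it on days 1 and 3, while Olfm4 was low on days 1, 2 and 3. Summed cycling markers were 448 to 570 TPM in normal crypts, 257 to 284 TPM on day 1, 116 to 142 TPM on day 2, 160 to 251 TPM on day 3 and 619 to 727 TPM on day 5. Immune markers summed to 17.9 to 23.2 TPM in normal crypts, 4.97 to 13.1 TPM on day 1, 19.2 to 35.7 TPM on day 2, 32.4 to 88.8 TPM on day 3 and 4.43 to 19.5 TPM on day 5. Their part in the result was not tested.

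Adding VPA and EPZ6438 to irradiated mice did not move Olfm4 beyond the spread of the libraries. With the drugs it was 40.4 and 28.8 TPM on day 1, 6.51 and 5.28 TPM on day 2, 4.93 and 18.5 TPM on day 3 and 152.3 and 151.7 TPM on day 5. The log2 difference from irradiation alone was 0.12 on day 1 (95% interval -0.80 to 1.05), -0.23 on day 2 (-1.15 to 0.70), 0.46 on day 3 (-0.46 to 1.39) and 0.30 on day 5 (-0.62 to 1.23), with adjusted p from limma of 0.904, 0.734, 0.387 and 1. In these comparisons 0.00926%, 8.38%, 31.7% and 0.0185% of all genes were called. Day 5 was the only day on which the libraries with and without drugs did not overlap. Over the 4 days the mean difference was 0.17 (95% interval -0.30 to 0.63, limma, adjusted p = 0.533, where 3.55% of genes were called), and a two-sided exact permutation test with labels exchanged within days gave p = 0.56. No difference among the days was found either (limma's F test, adjusted p = 0.827). The day 3 value depended on 1 library: without IR day 3 +VE replicate 1 the difference was 1.32 and was called (limma, adjusted p = 0.0132), and without replicate 2 it was -0.40, the lone library being assumed to vary like the other crypt groups. On that day the drugs went with a broad rise, 31.6% of all genes being called higher and the median of all genes being 0.69, and with quantile normalization the Olfm4 difference was -0.46. With the drugs, the mitochondrial share was 17.4% to 23.4% on day 1 and 26.3% to 29.2% on day 2, below irradiation alone. On days 3 and 5 the shares overlapped. Summed enterocyte markers with the drugs were 22048 to 33124 TPM on day 1, 34455 to 36923 TPM on day 2 and 13679 to 19665.5 TPM on day 5. These lay above irradiation alone, and on day 3 the sums overlapped. Their part in the result was not tested. The sources used here give no drug level in these crypts.

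**Figure D5:**
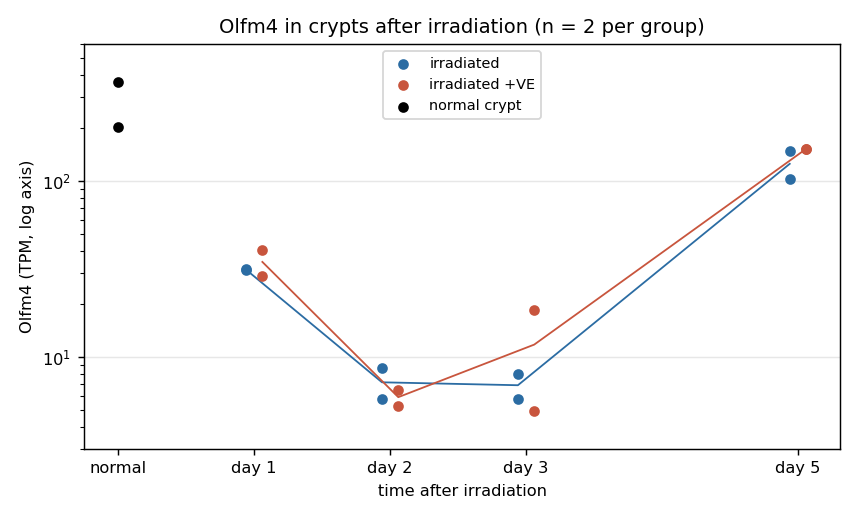
Olfm4 level in TPM on a log axis in normal crypts and 1, 2, 3 and 5 days after 12 Gy, without drugs and with VPA and EPZ6438, with points for libraries and lines through the group means. Levels on days 2 and 3 lie between 4.93 and 18.5 TPM against 201 and 364 TPM in normal crypts, and both day 5 groups lie between 103 and 152 TPM.

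Other genes of the stem cell and Notch lists were called lower after irradiation too, and these counts turned on the scaling. Of 16 stem cell markers tested, 2 were called lower on day 1 (Cdca7 and Smoc2), 7 on day 2, 10 on day 3 and none on day 5, where 5.48%, 26.2%, 51.3% and 5.61% of all genes were. Cd44, an adhesion receptor and Wnt target, was called higher on each of the 4 days, by 1.22, 1.61, 1.19 and 1.74 on the log2 scale, where 1.43%, 4.55%, 2.56% and 10.2% of all genes were. Smoc2 fell by 1.54, 3.40 and 2.78 on days 1 to 3 and was at -0.66 on day 5. Ascl2 was called on day 2 only, at -1.03, a call lost with each of the 3 other scalings, and it was at -0.94 on day 5, called with each of them. Lgr5 was under the minimum of 1 TPM in the mean of the crypt libraries and was not tested. Of 23 Notch pathway genes, 2 were called lower on day 1 (Hes1 and Notch4), 6 on day 2, 16 on day 3 and 2 on day 5. With quantile normalization the counts of lower stem cell markers were 1, 3, 2 and 1 on the 4 days, and those of lower Notch genes 0, 3, 6 and 1, where 1.68%, 7.69%, 13.6% and 6.39% of all genes were called lower. Hes1 fell by 1.23, 1.93 and 2.61 on days 1 to 3 and lay at -0.65 on day 5, and its day 1 call was lost with each of the 3 other scalings, as was that of Cdca7, while that of Notch4 was lost with quantile normalization. Dll1 fell by 1.67 on day 2, a call lost with quantile normalization, and by 2.95 on day 3, and was still called lower on day 5, at -1.39. With drugs on day 3, Hes1 was higher by 1.48 (limma, adjusted p = 0.00092) and Dll1 by 1.05, while Olfm4 was not called, 31.6% of all genes were called higher, and both calls were lost with quantile normalization (0.64 and 0.46) and scaling to the 75th percentile.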

How the data were processed

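Bulk RNA-seq of organoids and crypts was analysed. Per the study's methods and the submitters' processing notes, RNA was made into NEBNext Ultra libraries, which do not mark strand, reads were trimmed with Trimmomatic 0.39, aligned to mm10 with STAR 2.7.3a and counted with featureCounts, and the authors deposited TPM in 1 table. How counts became TPM is not given in the sources used here. R 4.3.3 was used, and all differences are on the log2(TPM + 1) scale, so fold changes understate those of low genes. Tests were made with limma 3.58.1 (eBayes with trend and robust) on genes whose mean in the compared libraries reached 1 TPM. Each organoid pair had its own fit and the 18 crypt libraries shared 1. Calls needed a 2-fold change and, after Benjamini-Hochberg adjustment over all genes, a p under 0.05. Olfm4 alone was also tested by exact permutation, and over 28 pairs of organoid conditions.

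Olfm4, the gene lists, the comparisons and the alternatives were chosen with earlier results of these data known. Besides Olfm4, the text names Lgr5, Ascl2, Smoc2, Hes1, Atoh1, Dll1, Dll4 and Notch1, up to 3 called members of each list and direction with the largest change, and the 10 genes most like and 5 most opposed to Olfm4. Where at most 5 members of a list were called, all may be named; those beyond 3, genes given by level only, and Cd44 on every day were added after their values were seen. Lists are described by counts beside the share of all genes called, with no set test. Same-numbered libraries of 8C -VE, 8C -E and 8C -V deviated together (correlations of 0.647 to 0.775 over genes), so the block was used beside those results. The scripts were tested on simulated data. Alternatives were a pseudocount of 0.1, quantile and 75th percentile scaling, removal of mitochondrial genes, the replicate number as a block, a minimum of 5 TPM or none, other groups in the fit, plain eBayes, replicate numbers 1 to 3 or 4 to 6 only, and leaving out each replicate.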

Additional observations from a re-analysis of the deposited data

Results flagged for a closer look

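Among 5 groups of 4 to 10 libraries, 2 held an Olfm4 value far from the rest of its group, where chance flags about 1 in 20 groups. ENR replicate 7 held 1591 TPM, 10.6 on the log2(TPM + 1) scale, below the other ENR libraries. Number 7 also had the highest mitochondrial share of TPM in each condition that has it, 4.69% in ENR against 1.84% to 3.81% in the others, 5.47% in 8C -VE, 6.64% in 8C -E, where it was the lowest library at 241 TPM, and 6.31% in 8C. In 8C -VE and 8C its Olfm4, 1278 and 29.4 TPM, lay within the range of the others, and without mitochondrial genes ENR replicate 7 held 1669 TPM. The part of the mitochondrial share was not tested. 8C -VE replicate 4 held 682 TPM, 9.42 on that scale, below the other 8C -VE libraries, and number 4 was also the lowest of 8C -V. Each test against 8C -VE was repeated without that library.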

How the results depend on the processing

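The fall of Olfm4 in 8C -V, 8C -GSK3i, 8C -Pex and 8C -bFGF against 8C -VE, its fall in the last 3 against ENR +VE, and its fall in crypts on days 1 to 3 kept direction and call under every alternative run. 8C -V against 8C -E gave -1.09 with numbers 1 to 3 only, and was then called. 8C -EGF against 8C -VE gave -1.20 and was not called against 8C -VE numbers 4 to 6 only, an alternative chosen after seeing the data, and -2.08 to -1.21 with replicates left out in turn. 8C -EGF against ENR +VE was called with quantile normalization (-1.26) and 75th percentile scaling (-1.21), and ran from -1.79 (called, without 8C -EGF replicate 2) to -0.92 with replicates left out. Day 5 against normal crypts was called at -1.48 (75th percentile), -1.19 (mitochondrial genes removed) and -1.13 (only the groups compared), with -1.56 to -0.70 on leaving out replicates, and was also called without either IR day 3 +VE library. The drug difference in crypts changed sign on day 1 with quantile normalization (-0.13), the 75th percentile (-0.16) and mitochondrial genes removed (-0.071), on day 3 with quantile normalization (-0.46) and the 75th percentile (-0.22), and over the 4 days with the same scalings (-0.27 and -0.19). With replicates left out it ran from -0.11 to 0.36 on day 1, -0.48 to 0.027 on day 2, -0.40 to 1.32 on day 3 and -0.050 to 0.38 over the 4 days. These scalings moved the median of all genes by up to 1.04 for day 3 against normal crypts and by -0.75 for the drug difference on day 3. Numbers 4 to 6 only put 8C at -7.82 and 8C -VE at -1.40 against ENR, and numbers 1 to 3 only put them at -6.19 and -0.58. The causes were not tested. With the replicate block, 8C -V against 8C -VE was -1.65, the omissions of GSK3iXV, Pexmetinib, bFGF and EGF were -6.57, -6.38, -7.29 and -1.85, and beyond those named in the report no call changed. Same-numbered libraries of the omissions and of 8C -VE hardly deviated together over genes (mean correlations of 0.0081 to 0.14). The block is thus no check of those omissions. Normal and irradiated crypts deviated oppositely by number on days 1 and 2: all genes called were 747 and 3322, 801 and 3328 with the block and 832 and 3343 with crossed numbers. Omissions have no numbers 4 to 6, so all their libraries were set against 8C -VE numbers 4 to 6: 8C -GSK3i, 8C -Pex and 8C -bFGF were at -5.92, -5.73 and -6.64, and called. Of 1350 list counts recomputed, 1215 were within 1.5 times the count given and 135 moved. Unknown depth and 2 or 3 libraries a group limit the smaller differences.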

Other observations

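Targets of BMP signalling, the pathway that opposes stem cell fate toward the villus, fell in crypts beside Olfm4 and were called lower on day 5 as well. Of 7 BMP targets in the list 5 were abundant enough to be tested, and all 5, Id1, Id2, Id3, Smad6 and Smad7, were called lower on each of the 4 days, where 5.48%, 26.2%, 51.3% and 5.61% of all genes were. The calls of Smad7 on days 1 and 2 were lost with quantile normalization and scaling to the 75th percentile, and on day 1 also with mitochondrial genes removed, and the other calls held under each of these. Id1 held 701 ± 94.7 TPM in normal crypts and 135 ± 24.7, 78.4 ± 17.2, 53.7 ± 4.27 and 110 ± 9.43 TPM on days 1, 2, 3 and 5 (SD, n = 2 each). Id3 held 390 ± 39.8 TPM in normal crypts and 76.4 ± 4.73 TPM on day 5.

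Sptssb, chosen for a pattern opposed to that of Olfm4 in organoids, held 3.41 ± 1.13 TPM in normal crypts, 29.8 ± 4.92 TPM on day 3 and 22.6 ± 9.56 TPM on day 5 (SD, n = 2 each), when Olfm4 was at 147 and 103 TPM.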
